A study of Mus musculus with 4 samples.

Results

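The aryl hydrocarbon receptor pathway was examined in mouse 3T3-L1 preadipocytes through the array probes named for the receptor (Ahr), its partner (Arnt), its repressor (Ahrr) and its target genes. A rule on gene symbols, with case ignored, listed 8 genes and matched 6 of the 26423 probes in the table. These 6 probes belonged to 5 of the 17742 genes named there: Ahr, Arnt, Ahrr and Aldh3a1 with 1 probe each and Tiparp with 2. The 3 cytochrome P450 targets in the rule are not analysed here. One further probe carried HIF1B, an older symbol of Arnt, and is reported apart from the 6.

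The receptor is a ligand-activated transcription factor of the bHLH-PAS family that rests in the cytosol with chaperones. After binding a planar aromatic compound, a dietary indole or a tryptophan metabolite it moves to the nucleus, pairs with ARNT and binds dioxin response elements near its target genes. In 3T3-L1 cells, activation of the receptor is known for holding back adipocyte formation, and ARNT also serves as the partner of the hypoxia-inducible factors.

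The study compared 2 samples given berberine at 13.47 µM, a plant alkaloid, with 2 control samples without it. All 4 received the adipogenic mixture of isobutylmethylxanthine (0.5 mM), dexamethasone (1 µM) and insulin (1 µg/ml) for 48 hours. No sample without the mixture was among them, so each value describes induced cells of 1 cell line. RNA was labelled with Cy5, and each sample was read on its own 1-colour array. The labels do not give separate cultures or days for the samples of a group, so a p-value here sets a difference against the spread of arrays that may be technical repeats.

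The deposited values were linear intensities with an unknown zero point, and their median was 237 and 280 on the berberine arrays and 423 and 350 on the control arrays. Arrays were therefore quantile-normalized, and levels below are log2 of the normalized intensity unless called deposited. Changes are log2 differences, berberine minus control, with standard errors (SE) and adjusted p-values from limma over all 26408 probes fitted. The median change of all probes was 0.17 in this setting, -0.05 in the deposited values, 0.26 with arrays scaled on their 75th percentile and 0.52 with arrays centred on their median. Of preadipocyte or fibroblast markers, 9 of 10 measured lay above the 25th percentile of an array with berberine and 10 of 10 in control. These markers rose at 3 and fell at 5 of the 10. Over all genes, by 1 probe per gene, 30.0% were called higher and 18.2% lower. The rises were Col1a1 (2.81-fold), Pdgfrb (2.06-fold) and Col1a2 (1.51-fold). Among the falls, Fn1, which encodes fibronectin, fell at least 326-fold to a level under that percentile. Dlk1, the preadipocyte factor, fell 3.09-fold at the brighter of its 2 probes. Col3a1, Pdgfra and Fap also fell, and Vim and S100a4 did not pass. Adipocyte markers fell at 8 of 12 and rose at 3, and their summed normalized intensity was 39887 and 41105 with berberine, against 665574 and 646899 in control. Lpl and Pparg, the latter counted among the rises, were under that percentile in both groups, and Cfd and Lep with berberine. Endothelial markers rose at 3 of 5, with sums of 1526 and 1421 with berberine, against 968 and 1014 in control. These sums are low: those of the preadipocyte or fibroblast markers were 451841 and 473282 with berberine, against 535205 and 500943 in control. Tek, counted among the endothelial rises, was under that percentile in control. Macrophage markers rose at 1 and fell at 1 of 5, and epithelial markers fell at 1 of 3. The part of these shifts in the values below was not tested. In such bulk samples, fewer cells of a type and less RNA per cell cannot be told apart.

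Ahr rose with berberine, Tiparp rose at 1 of its 2 probes, and Arnt fell at the probe that carries its current symbol. Of the 6 probes, 2 were called higher, 1 lower, and 3 did not pass the adjusted p threshold of 0.05, so 50% were called. Over all probes 44.8% were called in this comparison, 27.1% higher and 17.7% lower. The share among these probes was therefore near that of the array as a whole. In simulated arrays where many probes changed by at least 2-fold, more than the nominal share of calls was false. Here 22.0% of all probes were both called and at least 2-fold, a smaller share than was changed in the simulation. The adjusted p-values given here may thus be too small, by an amount that the simulation does not give. In all 6 the berberine arrays lay on one side of both control arrays, as did 74.8% of all probes. Berberine was the higher side at 4 of the 6, against 46.6% of all probes, and the lower side at 2, against 28.2%. Leaving out any array leaves 1 array in its group. Over all probes fewer were then called, and far fewer without a berberine array than without a control array. Among these 6, fewer were called only when a berberine array was left out. The split of calls over all probes, 7164 higher to 4674 lower, moved with the scaling, to 2396 and 4291 in the deposited values, 5570 and 3692 on the 75th percentile and 10694 and 3311 after centring. All 7 probes, including the one under the older symbol, were above the 25th percentile in both groups.

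**Figure D1:**
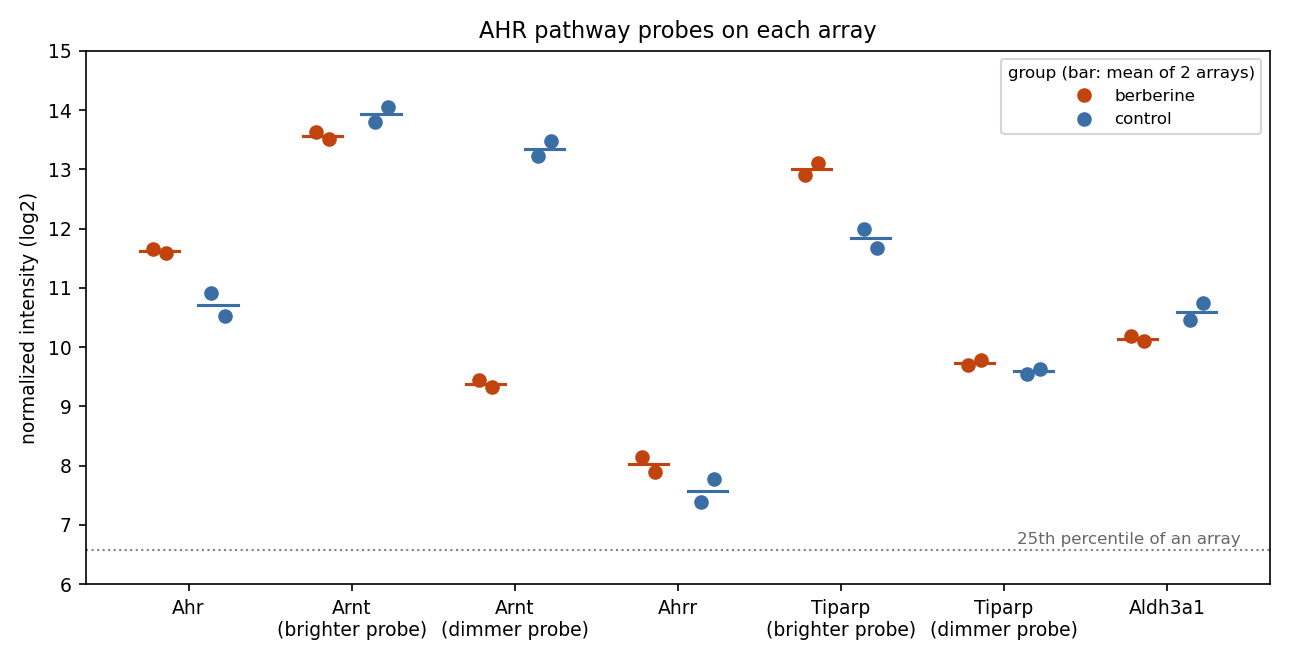
Normalized log2 intensity of the 7 probes, with a point for each array, a bar for the mean of 2 arrays, berberine left of control in each pair, and a dotted line at the 25th percentile of an array (6.58). The Arnt probes stand apart: at 1 of them the berberine arrays lie near 9.4 and the control arrays near 13.3, while at the other the groups are 0.37 apart.

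Ahr encodes the receptor itself. Its probe read 2861 and 3041 in deposited intensity on the berberine arrays, against 2538 and 1520 on the control arrays. After normalization the levels were 11.65 and 11.59 with berberine and 10.91 and 10.52 in control. Both berberine arrays were above both control arrays, and the controls lay further from each other than the berberine arrays did. The rise was 1.87-fold (log2 change 0.91, SE 0.17, 95% interval 0.46 to 1.35, limma adjusted p = 0.0123). It passed with arrays centred or scaled on the 75th percentile, but not in the deposited values (0.59, adjusted p = 0.206). Without berberine replicate 1 or 2 the change was 0.83 and 0.89 and no longer passed. Without control replicate 1 or 2 it was 1.14 and 0.75 and still passed.

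Arnt encodes the partner that the receptor needs in order to bind DNA, and its 2 probes did not move alike. At the dimmer probe, named ARNT, deposited intensities were 529 and 545 with berberine, against 10478 and 9542 in control. Normalized levels were 9.44 and 9.32 with berberine and 13.22 and 13.47 in control, with a wide gap between the groups. This fall was 15.6-fold (log2 change -3.97, SE 0.15, 95% interval -4.35 to -3.59, limma adjusted p = 0.000133). A fall of this size or more was seen at 430 of all probes, or 1.63%. It passed under each alternative run, with changes of -4.22 to -3.65 across all of them.

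At the brighter probe, named HIF1B, deposited intensities were 12683 and 12802 with berberine, against 15459 and 14132 in control. Normalized levels were 13.63 and 13.51 with berberine and 13.81 and 14.06 in control, so the berberine arrays were lower by little more than the spread within control. The change was -0.37 (SE 0.15, 95% interval -0.75 to 0.02, limma adjusted p = 0.103) and did not pass. Its sign turned with the scaling, to 0.09 on the 75th percentile and 0.35 after centring on the median. The changes at the 2 Arnt probes differed by 3.60 on the log2 scale. Among 1470 genes with exactly 2 probes above the 25th percentile in a group, 6.87% had a gap of that size or more, and the median gap was 0.85. The 2 probes therefore disagree on the size of the change, and the direction at the brighter one depends on the scaling. Taking the brighter probe of each gene leaves Ahr and Tiparp as the 2 genes called, both higher, and none lower. Over all genes by that rule 48.2% were called, 30.0% higher and 18.2% lower.

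Ahrr encodes a repressor that competes with the receptor for ARNT and is itself a target of the receptor. Its probe was dim, at 215 and 216 in deposited intensity with berberine, against 208 and 238 in control. Normalized levels were 8.14 and 7.90 with berberine and 7.38 and 7.77 in control, which leaves 0.13 between the nearest arrays of the groups. The change of 0.44 (SE 0.19, 95% interval -0.04 to 0.93, limma adjusted p = 0.117) did not pass, and it was -0.05 in the deposited values.

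Tiparp encodes PARP7, a mono-ADP-ribosyltransferase that modifies the receptor and limits its activity, and it is a direct target of the receptor. At the brighter probe, deposited intensities were 7618 and 9604 with berberine, against 4815 and 2996 in control. Normalized levels were 12.91 and 13.10 with berberine and 11.99 and 11.68 in control, with no overlap. The rise was 2.26-fold (log2 change 1.17, SE 0.17, 95% interval 0.74 to 1.60, limma adjusted p = 0.00498), and it passed under each of the 4 scalings with changes of 1.17 to 1.74. Without berberine replicate 1 or 2 the change was 1.23 and 1.04 and missed the threshold. Without control replicate 1 or 2 it was 1.38 and 1.04 and still passed.

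The dimmer Tiparp probe read 635 and 765 in deposited intensity with berberine, against 1047 and 868 in control. Normalized levels were 9.69 and 9.79 with berberine and 9.55 and 9.63 in control, a difference close to the spread within each group. The change was 0.15 (SE 0.12, 95% interval -0.17 to 0.47, limma adjusted p = 0.372), and it was -0.45 in the deposited values and -0.15 on the 75th percentile. The rise at the brighter probe was thus not seen at the other. A gap of at least 1.02 between the changes of a gene's probes was found in 43.6% of the 1470 genes with 2 such probes.

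Aldh3a1 encodes a class 3 aldehyde dehydrogenase that oxidises aromatic and lipid-derived aldehydes and is a classic member of the receptor's gene battery. Its deposited intensities were 911 and 963 with berberine, against 1903 and 1729 in control. Normalized levels were 10.19 and 10.10 with berberine and 10.45 and 10.74 in control, so the berberine arrays were the lower ones. The change of -0.46 (SE 0.15, 95% interval -0.85 to -0.06) did not pass (limma adjusted p = 0.0644). It did pass in the deposited values (-0.95, adjusted p = 0.0226), with dim probes left out (adjusted p = 0.0441) and without control replicate 1 (-0.62, adjusted p = 0.0366). The sign was below 0 in every setting run. The 3 targets measured under the naming rule were Ahrr, Tiparp and Aldh3a1. They gave a rise at 1 of 4 probes and no call at the others, beside 44.8% of all probes called.

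**Figure D2:**
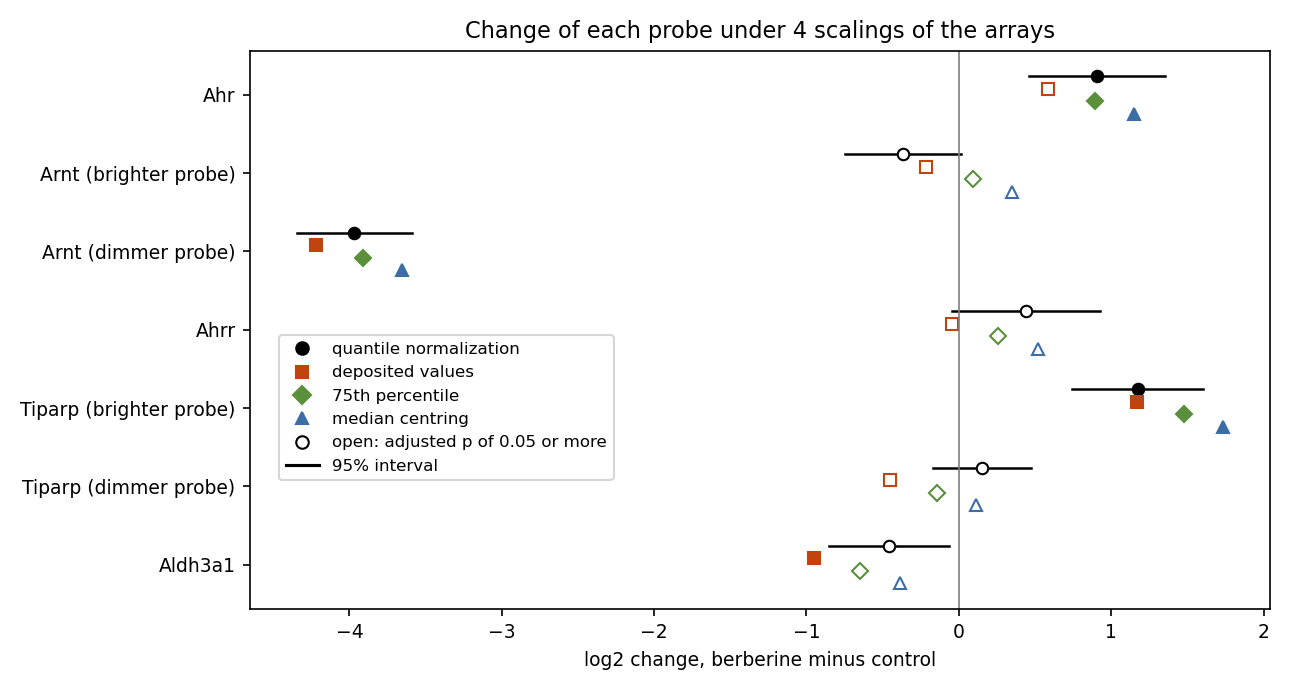
Log2 change (berberine minus control) of the 7 probes under 4 scalings of the arrays, filled where the limma adjusted p was under 0.05 and open otherwise, with the 95% interval under quantile normalization. The fall at the dimmer Arnt probe and the rise at the brighter Tiparp probe are filled in all 4 scalings, whereas Ahrr, the dimmer Tiparp probe and the brighter Arnt probe cross 0 between scalings.

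Upstream windows of 3 measured genes were searched for the core of the dioxin response element, GCGTG, and the longer form TNGCGTG, on both strands. Those of Tiparp and Ahrr are shown because both are targets whose promoter windows were in the RefSeq table (GRCm38.p6). The core is in capitals and reads CACGC where it lies on the other strand. The Tiparp window, chr3:65528197-65528446 on the plus strand, covers the 250 bases before the gene start, and the Ahrr window, chr13:74292332-74292581, lies on the minus strand. Both are written 5′ to 3′ along the gene.
Tiparp: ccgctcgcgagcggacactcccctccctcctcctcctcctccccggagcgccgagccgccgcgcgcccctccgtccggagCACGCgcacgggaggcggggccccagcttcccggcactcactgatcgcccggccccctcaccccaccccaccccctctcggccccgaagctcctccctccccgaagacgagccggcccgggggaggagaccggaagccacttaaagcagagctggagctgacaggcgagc
Ahrr: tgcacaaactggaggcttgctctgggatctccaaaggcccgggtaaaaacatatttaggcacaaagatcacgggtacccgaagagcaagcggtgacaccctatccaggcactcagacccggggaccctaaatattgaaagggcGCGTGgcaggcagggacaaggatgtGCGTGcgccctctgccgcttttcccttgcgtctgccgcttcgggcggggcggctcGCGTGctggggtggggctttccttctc

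The Tiparp window held the core once, on the other strand, from 170 to 166 bases before the gene start. The Ahrr window held it 3 times, and the copy nearest the start also matched the longer form, 29 to 23 bases before it. The Arnt window held 1 core and no longer form. That window, chr3:95434140-95434389, runs past the RefSeq gene start at 95434367, so it does not lie wholly before the gene. Of 32851 such windows, 28.2% held the core and 4.10% the longer form. RefSeq windows were matched for 3 of the 5 measured genes. The matches describe these letters only.

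Genes around the pathway were read from 1 probe per gene, the one with the highest mean. By this rule 48.2% of 17734 genes were called, 30.0% higher and 18.2% lower, with a median change of 0.20. The lists below came from knowledge of the pathway, with earlier results of these data known. Fewer probes were called over the whole array without either berberine array, so lower list counts there go with a lower count for all probes.

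Of 9 measured genes of the receptor's cytosolic complex and turnover, 3 rose, 1 fell and 5 did not pass, with a median change of 0.23. Without berberine replicate 1 or 2, 1 and 0 of the 9 were called. Centring gave 7 higher and 1 lower, with a median of 0.81, against 0.55 for all genes. Stub1, a ubiquitin ligase that works with chaperones, read 742 and 849 in deposited intensity with berberine, against 270 and 329 in control. It rose 3.89-fold (log2 change 1.96, limma adjusted p = 0.00181), and the adjusted p was 0.0579 when berberine replicate 2 was left out. Kpnb1, a nuclear import receptor, rose 2.59-fold. Xpo1, the main nuclear export receptor, fell by at least 1.23-fold, since its berberine level lay under the 25th percentile. The Kpnb1 and Xpo1 calls were lost without either berberine array. Hsp90ab1, the chaperone that holds the receptor, changed by 0.23 and did not pass (limma adjusted p = 0.185), though it did after centring (0.80, adjusted p = 0.00976). The genes given here beyond the naming rule (Hsp90ab1, Arnt2, Hif1a, Ptgs2, Il6, Por, Gsta3, Nfe2l2, Kyat3, Got2, Aldh3a2, Fn1, Dlk1, Col1a1, Pdgfrb and Col1a2) were chosen after their values were seen.

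Other bHLH-PAS genes and their relatives Per1, Per2 and Per3 moved both ways. Of 19 measured, 5 rose, 6 fell and 8 did not pass, with a median change of -0.14, against 0.20 for all genes. The list median was 0.42 after centring and 0.16 on the 75th percentile, where that of all genes was 0.55 and 0.29. Centring gave 8 higher and 3 lower and the deposited values 2 and 4, and without berberine replicate 1 or 2, 5 and 2 of the 19 were called. Arntl, the clock factor BMAL1, read 8694 and 9941 in deposited intensity with berberine, against 4507 and 3477 in control. It rose 2.31-fold (limma adjusted p = 0.00169), with adjusted p = 0.0502 without berberine replicate 2. Arnt2, the closest relative of Arnt, rose 1.58-fold (adjusted p = 0.0173), but not in the deposited values (0.07, adjusted p = 0.872), on the 75th percentile or without either berberine array (adjusted p = 0.118 and 0.132). The coactivator Ncoa3 rose 2.71-fold (1.44 on log2, and 1.18 at its other probe, which missed the threshold without either berberine array), while its relative Ncoa1 fell 2.59-fold (adjusted p = 0.00169, and 0.0523 when berberine replicate 2 was left out). Hif1a, a competing partner of ARNT, had 3 probes, which gave changes of -0.64, 1.33 and 1.03, each with a limma adjusted p under the threshold. The first of these turned to 0.15 after centring and missed the threshold in the deposited values, on the 75th percentile and without either berberine array. The third missed it in the first 2 of those scalings and without control replicate 2 or either berberine array, and the second without berberine replicate 2 (adjusted p = 0.0527). These data give no single direction for Hif1a.

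Cofactors and cross-talk partners of the receptor held 11 genes that rose and 6 that fell among 22 measured, with a median change of 0.48. The deposited values gave 4 higher and 5 lower, and 5 and 4 genes were called without berberine replicate 1 or 2. Smarca4, the ATPase of a chromatin remodelling complex, rose 2.48-fold (1.31 on log2, and 0.74 at its other probe, where the call was lost in the deposited values, on the 75th percentile and without any 1 array). Sp1, a general transcription factor, read 446 and 499 in deposited intensity with berberine, against 6076 and 6388 in control, and fell 10.8-fold (limma adjusted p = 0.00039). Ccnd1, the G1 cyclin D1, fell 7.13-fold (adjusted p = 0.000388).

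**Figure D3:**
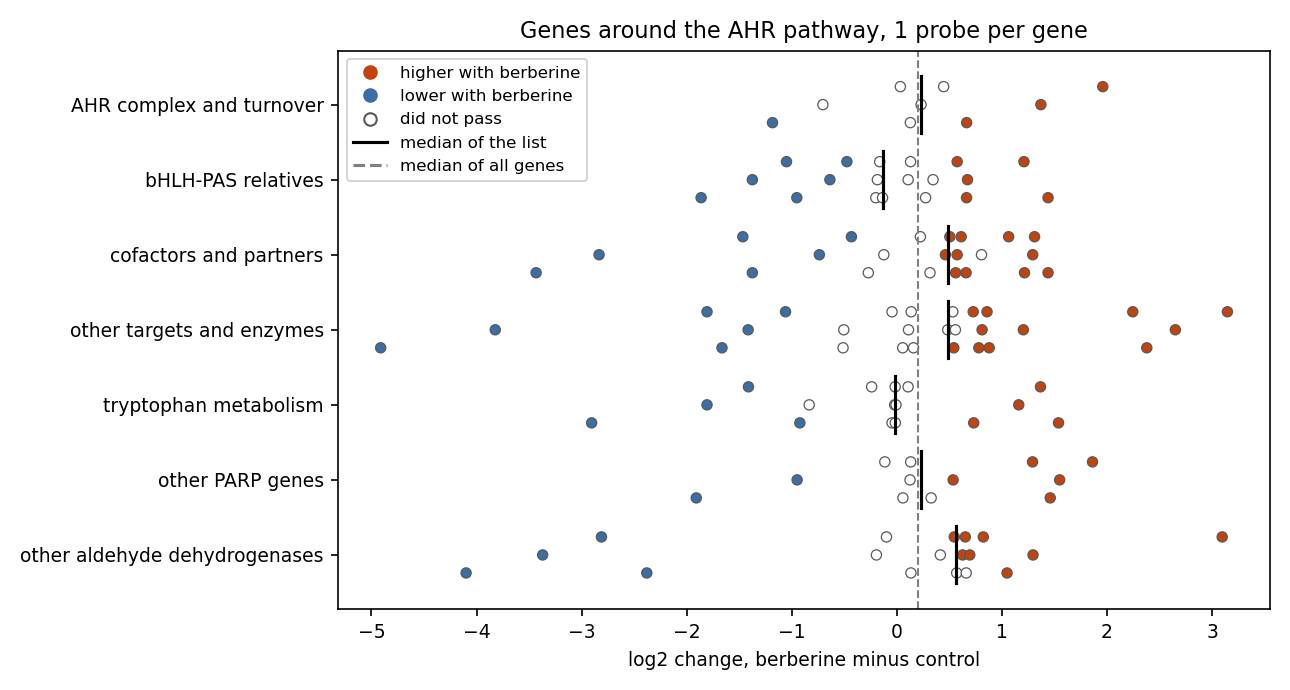
Log2 change (berberine minus control) of each measured gene in 7 lists around the pathway, by 1 probe per gene, coloured where the limma adjusted p was under 0.05, with a bar at the median of the list and a dashed line at the median of all genes (0.20). Each list holds genes called in both directions, and the list of other targets spans changes of -4.91 to 3.15.

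Other target genes and drug-metabolising enzymes included large changes in both directions. Of 27 measured, 11 rose, 6 fell and 10 did not pass, with a median change of 0.48, and 8 were called without berberine replicate 1 and 8 without replicate 2. Lrat, counted among the rises, was under the 25th percentile in both groups. The deposited values gave 7 higher and 6 lower. Nqo1, a quinone reductase of the receptor's battery that NRF2 also controls, read 90 and 119 in deposited intensity with berberine, against 4692 and 2740 in control. Normalized levels were 6.78 and 6.86 with berberine, close to the 25th percentile, and 11.95 and 11.51 in control. Nqo1 fell 30.1-fold (log2 change -4.91, SE 0.18, limma adjusted p = 0.000137). Xdh, xanthine dehydrogenase, which makes uric acid, fell 14.1-fold (adjusted p = 0.000193). Ereg, the growth factor epiregulin, rose 6.28-fold (adjusted p = 0.000295), with 6808 and 7384 in deposited intensity with berberine, against 1384 and 1247 in control. Ptgs2, the inducible cyclooxygenase, and Il6, the cytokine interleukin-6, rose 8.85-fold and 5.20-fold, and Por, the electron donor of microsomal P450 enzymes, rose 4.74-fold (adjusted p = 0.000346). Gsta3, a glutathione transferase, fell 2.08-fold (adjusted p = 0.0089), and the call was lost without either berberine array (adjusted p = 0.0913 and 0.106). Nfe2l2, which encodes the regulator NRF2, changed by 0.16 (adjusted p = 0.352), and by 0.83 after centring, where it passed (adjusted p = 0.00955).

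Genes that make or remove tryptophan-derived ligands were called at 8 of 16, with 4 higher and 4 lower. Their median change was -0.02, against 0.20 for all genes. The list median was -0.53 in the deposited values, -0.22 on the 75th percentile and 0.04 after centring. Over all genes it was -0.02, 0.29 and 0.55 in the same order. The deposited values gave 2 higher and 5 lower, and the 75th percentile 3 and 4. Without either berberine array 3 were called. Ido2, an enzyme that opens the tryptophan ring, fell 3.50-fold (limma adjusted p = 0.000967), and Kyat1, a kynurenine aminotransferase, fell 7.49-fold (adjusted p = 0.000215). Aadat, another kynurenine aminotransferase, rose 2.91-fold (adjusted p = 0.000945). Kyat3 and Got2, which also encode kynurenine aminotransferases, each changed by -0.02 and did not pass (adjusted p = 0.922 and 0.947), although Got2 passed after centring (0.67, adjusted p = 0.0254).

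The families of Tiparp and Aldh3a1 also moved both ways. Among 12 other PARP genes 5 rose and 2 fell, with a median change of 0.23, and 3 were called without either berberine array. Centring gave 5 higher and 1 lower. Parp3, which acts in DNA break repair, read 70587 and 73506 in deposited intensity with berberine, against 18698 and 16467 in control, and rose 3.64-fold (limma adjusted p = 0.000687). Parp14, a mono-ADP-ribosyltransferase like PARP7, rose 2.93-fold (adjusted p = 0.0012), and Parp16, of the endoplasmic reticulum, fell 3.75-fold (adjusted p = 0.000786). Among 18 other aldehyde dehydrogenase genes 8 rose and 4 fell, with a median change of 0.56. The deposited values gave 3 higher and 4 lower, and 6 were called without either berberine array. Aldh3b2, of the same class as Aldh3a1, fell at least 4.82-fold (adjusted p = 0.000119), Aldh4a1, of proline breakdown, fell 10.3-fold and Aldh1a7 fell 7.02-fold. Aldh3a2, the nearest relative in the class, changed by -0.10, or 0.18 after centring, and did not pass (adjusted p = 0.578).

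By profile over the 4 arrays, the genes most like Ahr among 16989 named probes above the 25th percentile in a group were Hectd3, Ubp1 and Ddx39a. Their root mean square distances from Ahr were 0.0110, 0.0111 and 0.0120 on mean-centred log2 values, and their changes were 0.92, 0.91 and 0.89. The genes most like the dimmer Arnt probe were Amotl2, Hebp1 and Ppdpf, at distances of 0.0391, 0.0421 and 0.0506, with changes of -3.89, -4.00 and -3.95. With 4 arrays in 2 groups, such likeness is a description of level differences alone.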

How the data were processed

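Expression was measured in 2 berberine and 2 control samples of 3T3-L1 cells, grouped by their titles. The deposited table holds linear probe intensity values in whole numbers, 15 of them at or under 0. The sources used here do not give the background correction, scaling or scanner. GEO's platform annotation named 20377 probes with 1 symbol and 0 with several, and 6046 are unnamed here. RefSeq (GRCm38.p6) matched 18213 of these directly and 2126 by an older symbol, while 38 stayed as the platform gives them. Array medians differed by 0.84 on log2, over the limit of 0.1, so arrays were quantile-normalized (limma 3.58.1, R 4.3.3).

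Only probes above 0 on all arrays were used, and these 26408 were fitted with lmFit and eBayes and adjusted by Benjamini-Hochberg. The smallest two-sided p of an exact permutation test with 2 arrays a group is 0.333. The p-values therefore depend on the variance that limma shares across probes (2 residual degrees of freedom, 2.89 from the prior). The number of arrays limits the precision. The fit was tested on simulated data, where more calls than the nominal share were false when many probes changed by at least 2-fold. The same may hold here, but to an unknown extent, since a smaller share of probes was called with such a change. A level under the 25th percentile of the normalized values (an intensity of 95.8) gives only a bound. A gene with several probes is represented by that with the highest mean. The genes named by rule were all members, and per list up to 3 with the smallest p among called genes above that percentile, plus Nqo1. To these came 3 genes most like Ahr and 3 most like the member probe with the largest change. Other genes and cell type markers named in the Results were chosen after their values were seen. The members and lists were chosen with earlier results of these data known. Alternatives covered scaling, pseudocount, dim probes, the prior, a replicate block and each array left out.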

Additional observations from a re-analysis of the deposited data

How the results depend on the processing

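The probe under the older Arnt symbol was added after seeing the data, and it left the count of called probes at 3. The other alternatives were planned. Of all probes 11838 were called. The deposited values gave 6687 (2396 higher), a 2-fold minimum in addition gave 5806 (2863 higher, 2943 lower), and leaving out each array gave 3346 to 10787 (1218 to 6545 higher, 2128 to 4242 lower), where the group left with 1 array takes its spread from the other. Lower calls made up 17.7% of all probes by quantile normalization, and the split was 2396 higher to 4291 lower in the deposited values, 10694 to 3311 after centring and 5570 to 3692 on the 75th percentile. Of the 6 member probes, 3 were called. Leaving out each array gave 1 to 4, with 0 to 2 higher and 1 to 2 lower, and the lowest values came without either berberine array. The deposited values called 1 higher and 2 lower, the 2-fold minimum 1 higher, omission of dim probes 2 lower, and 1 probe per gene 0 lower. The cause of these shifts was not tested, except that fewer arrays and fewer probes enter some of them. Signs turned for Ahrr (-0.046) and the dimmer Tiparp probe (-0.45) in the deposited values, for the dimmer Tiparp probe on the 75th percentile (-0.15), for the brighter Arnt probe on the 75th percentile (0.092) and after centring (0.35), and after centring for the brightest Hif1a probe (0.15), Aldh3a2 (0.18), Kyat3 (0.020) and Got2 (0.67), with Got2 also turned in the deposited values (0.10) and on the 75th percentile (0.41). Leaving out each array gave -0.16 to 0.12 for Kyat3 and -0.21 to 0.18 for Got2.

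Same-numbered arrays did not deviate together (r = 0.0035 across probes), and the replicate block gave 12760 calls over all probes and the same 3 among the members. In the lists, calls in the receptor complex were 4, with 8 after centring and 0 to 4 leaving out each array. The bHLH-PAS list had 11, with 6 in the deposited values, 5 on the 75th percentile and 2 to 11 leaving out each array. Other targets had 17 (8 to 17 leaving out each array), cofactors 17 (9 in the deposited values, 4 to 16 leaving out each array), tryptophan genes 8 (3 to 8), PARP genes 7 (3 to 7) and aldehyde dehydrogenases 12 (7 in the deposited values, 6 to 12 leaving out each array). For the other named genes and probes, 289 of 308 values in settings that keep all arrays had the same sign and the same side of the threshold, 11 missed the threshold, 2 passed it only there and 6 turned. With 1 array left out, 144 of 176 stayed on the same side, 29 missed the threshold and 3 turned. Of the cell type markers only Fn1 and Dlk1 entered these counts, and Lrat did not. The zero point of the intensities is unknown, so changes of dim probes such as Ahrr are the least certain in size.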
